A study of Saccharomyces cerevisiae with 6 samples.

Results

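The mevalonate and farnesyl steps of sterol synthesis are carried out in *Saccharomyces cerevisiae* by the products of 10 genes, *ERG10*, *ERG13*, *HMG1*, *HMG2*, *ERG12*, *ERG8*, YNR043W, *IDI1*, *ERG20* and *ERG9*. They were chosen by name, as the enzymes that lead from acetyl-CoA to squalene, and make up 10 of the 7126 genes in the count table. Earlier results of these data were known at that choice. YNR043W encodes mevalonate diphosphate decarboxylase and is listed in the files as *MVD1*. RNA was measured in 6 samples, 3 single colonies carrying *kcs1*-S537A,S646A (the mutant, from 1 strain, SSY146) and 3 carrying wild-type *KCS1* (WT, from 1 strain, SSY128). Both strains are Σ1278b diploids in which both chromosomal copies of *KCS1* are deleted (*kcs1*Δ/Δ), and both carry the *KCS1* allele on the centromeric *URA3* plasmid pRS416. The serines named in the mutant allele are changed to alanine in the inositol polyphosphate kinase Kcs1, which removes sites phosphorylated by Snf1, the yeast AMP-activated kinase. All cultures grew at low nitrogen, a condition that induces pseudohyphal growth, and the labels give 20 h. Each allele was represented by colonies of 1 strain. An effect of the allele and any other difference between the strains therefore cannot be told apart. The *p*-values weigh the difference between the strains against the spread between colonies.

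The pathway begins with acetyl-CoA and passes through HMG-CoA, mevalonate and the isopentenyl and dimethylallyl diphosphates to farnesyl diphosphate, which squalene synthase commits to sterols. The reduction of HMG-CoA is its main point of control. Farnesyl diphosphate also serves the synthesis of ubiquinone, dolichol, heme A and the lipid anchors of prenylated proteins. In yeast, ergosterol is the principal sterol of the plasma membrane, and the genes of its synthesis are activated by Upc2 and Ecm22, which bind the sterol response element TCGTATA.

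The promoters of *ERG13*, *ERG8* and YNR043W are shown because *ERG13* and YNR043W had the lowest values relative to WT among the 10 genes, and because *ERG13* and *ERG8* were the members with the sterol response element. Each is the 250 bases before the annotated start codon on the strand of the gene, read from the RefSeq R64 reference (the S288C genome, as the Σ1278b sequence was not used here), in which the coordinates of all 10 members were the same as in the count table. They lie at chrXIII:20536-20785 (minus strand), chrXIII:712066-712315 (plus strand) and chrXIV:701645-701894 (plus strand). Capitals mark TCGTATA or its reverse complement.
*ERG13*: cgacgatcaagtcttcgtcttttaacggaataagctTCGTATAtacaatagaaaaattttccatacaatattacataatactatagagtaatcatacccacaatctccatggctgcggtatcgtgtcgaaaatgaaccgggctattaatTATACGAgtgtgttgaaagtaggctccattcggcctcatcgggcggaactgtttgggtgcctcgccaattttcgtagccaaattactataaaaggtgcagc
*ERG8*: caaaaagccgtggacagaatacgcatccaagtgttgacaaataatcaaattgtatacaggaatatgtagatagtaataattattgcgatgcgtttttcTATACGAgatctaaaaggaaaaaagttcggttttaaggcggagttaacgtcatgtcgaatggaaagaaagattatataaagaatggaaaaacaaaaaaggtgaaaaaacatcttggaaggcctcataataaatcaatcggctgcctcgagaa
YNR043W: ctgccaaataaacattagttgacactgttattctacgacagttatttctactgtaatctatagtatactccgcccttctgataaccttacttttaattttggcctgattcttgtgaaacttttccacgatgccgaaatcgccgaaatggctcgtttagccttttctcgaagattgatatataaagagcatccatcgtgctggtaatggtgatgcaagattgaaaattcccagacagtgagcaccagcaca

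TCGTATA, read on both strands, occurred in the windows of 2 of the 10 members and in 3.8% of the 5978 windows of protein-coding genes of the same length. In *ERG13* it occurred on the gene's strand 214 to 208 bases before the start codon and on the opposite strand 101 to 95 bases before it. *ERG8* had it on the opposite strand 152 to 146 bases before the start codon. The core ATTGTT of the site of Rox1, a repressor of hypoxic genes, occurred in 5 windows of members (*HMG1*, *HMG2*, *IDI1*, *ERG20* and *ERG9*), against 28.8% of all windows. The core CATGTG of the site of Ino2 and Ino4, activators of phospholipid genes, occurred in 0 of the 10, against 5.57% of all. In the members' windows no match overlapped another, and a match describes the letters in the window only.

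Total counts were 20529351 to 22701020 in the mutant libraries and 17950923 to 20822332 in the WT libraries, and the 10 most abundant genes took 8.24% to 10.7% of a library. The plasmid gene *KCS1* was measured at 272, 797 and 347 CPM (counts scaled to library size with TMM factors) in the mutant and at 367, 309 and 341 CPM in WT (log2 fold change 0.48, standard error (SE) 0.36, adjusted *p* = 0.50, edgeR), which does not check the point mutations. Its plasmid marker *URA3* was likewise highest in mutant replicate 2 (log2 fold change 0.68, adjusted *p* = 0.34, edgeR). For the diploid label, 17 genes that diploids repress had a summed level of 276 to 338 CPM in the mutant and 253 to 278 CPM in WT. Of these genes, 14 had a positive and 3 a negative log2 fold change (median 0.17), and 1, *STE4*, was called higher in the mutant. With no haploid library for comparison, these levels cannot check the label. Genes of chromosome XIV were lower in every mutant library, with medians of -0.52, -0.55 and -0.53 on the log2 scale relative to the WT mean, and those of chromosome VI were lower in mutant replicate 1 alone, with a median of -0.98. Of the members, YNR043W is on chromosome XIV and none is on chromosome VI.

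Of the 10 transcripts, 8 had a negative and 2 a positive log2 fold change, mutant relative to WT, and 1, YNR043W, passed the test. The strains were compared with edgeR's quasi-likelihood test over the 6083 genes that passed the filter on low counts, among them all 10 members, with Benjamini-Hochberg adjusted *p*-values and a threshold of 0.05. Among the members, 1 was called lower, where 4.67% of all genes tested were called lower (284 genes), and 0 were called higher, where 0.986% of all genes were (60 genes). At an unadjusted *p* under 0.05, 2 members were lower, against 11.9% of all genes, and 0 higher, against 8.24%. In 3 members (*ERG13*, *ERG12* and YNR043W) each mutant value lay below each WT value, which was true of 14.8% of all genes, and in *HMG2* each mutant value lay above, as in 11.8% of all genes. The median log2 fold change was -0.17 over the members and 0.015 over all genes tested. In cultures measured as a whole, a change in every cell and a change in the share of some cells cannot be told apart.

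**Figure D1:**
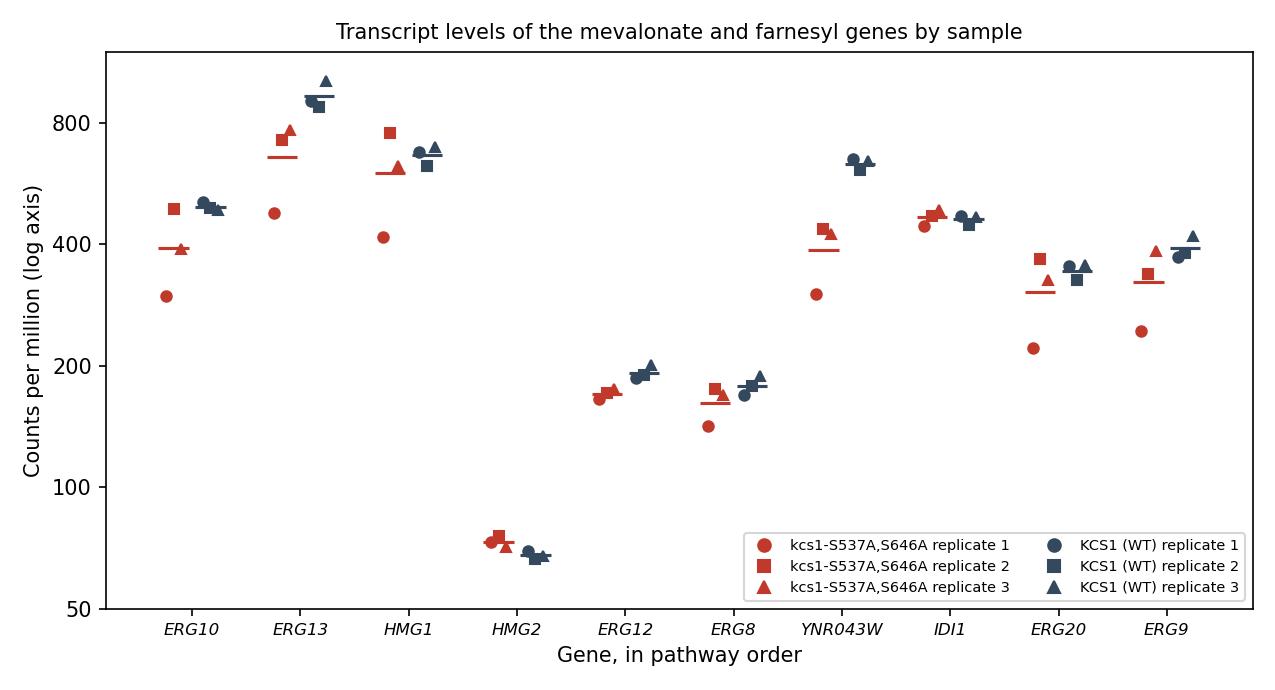
Transcript levels of the 10 genes in CPM on a log axis, in pathway order, with the mutant libraries left of the WT libraries for each gene, symbols for replicates and lines for means of 3. Mutant replicate 1 is the lowest of the 6 libraries for 9 of the genes, and *HMG2* is the exception.

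The low values of the 10 genes were mostly in mutant replicate 1. The median difference from the WT mean over the 10 genes was -0.66 in mutant replicate 1, -0.024 in mutant replicate 2 and -0.081 in mutant replicate 3 (log2 scale). The 10 genes together took 0.259%, 0.416% and 0.367% of the counts in the mutant libraries and 0.445%, 0.434% and 0.458% in the WT libraries. When mutant replicate 1 was left out, the members' median was -0.086, and 1 member, again YNR043W, was called. The same library was the low library for chromosome VI, and the part of that library in each result was not tested beyond leaving it out.

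Among the genes that build HMG-CoA, *ERG13* had the more negative log2 fold change. *ERG10* encodes acetyl-CoA acetyltransferase, which joins acetyl-CoA units, and was measured at 298, 489 and 389 CPM in the mutant and at 509, 490.3 and 487 CPM in WT. Mutant replicate 2 lay within the WT range and the other mutant libraries below it. The log2 fold change was -0.34 (SE 0.17, adjusted *p* = 0.32, edgeR), and the call depended on 1 library, since without mutant replicate 2 it was -0.53 with an adjusted *p* of 0.047.

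*ERG13* encodes HMG-CoA synthase and was the most abundant of the 10 transcripts in WT on either scale. It was measured at 479, 724 and 765 CPM in the mutant and at 904, 876 and 1012 CPM in WT. The strains did not overlap, and the mutant mean was lower than the WT mean by 29.5%, although mutant replicate 1 stood well below the other mutant libraries. The log2 fold change was -0.51 (SE 0.18, 95% interval -0.92 to -0.09), with an unadjusted *p* of 0.022 and an adjusted *p* of 0.17 (edgeR), which did not pass the threshold. Without mutant replicate 1 the difference was -0.33 with an adjusted *p* of 0.098.

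HMG-CoA reductase is encoded by *HMG1* and *HMG2*, and these genes differed in level and in pattern. *HMG1*, the main isogene in aerobic cells, was measured at 416, 754 and 626 CPM in the mutant and at 677, 624 and 695 CPM in WT. The mutant libraries lay below, above and within the WT range, and the log2 fold change was -0.15 (SE 0.20, 95% interval -0.61 to 0.31, adjusted *p* = 0.72, edgeR). Its direction turned without mutant replicate 1, at 0.050.

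*HMG2*, whose protein is degraded at the endoplasmic reticulum when the pathway is well supplied, was measured at 73.2, 75.7 and 70.9 CPM in the mutant and at 69.4, 66.2 and 67.6 CPM in WT. Each mutant library was above each WT library, by a small amount, and the log2 fold change was 0.11 (SE 0.07, 95% interval -0.05 to 0.27, adjusted *p* = 0.42, edgeR). In FPKM, which allows for gene length, *HMG1* was 5.63, 9.88 and 8.76 times as abundant as *HMG2* in the mutant libraries and 9.67, 9.34 and 10.2 times in the WT libraries. Mutant replicate 1 stands apart in this ratio, and mutant replicate 2 lies within the WT range. The mean log2 ratio was 2.98 ± 0.43 in the mutant and 3.28 ± 0.06 in WT (SD, n = 3 each), a difference of -0.31 that was -0.064 without mutant replicate 1.

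The coding sequences of *HMG1* (3165 bases) and *HMG2* (3138 bases) were compared to see whether reads could be assigned between them. Over 3115 aligned bases of the R64 reference, 66.1% were identical, with 58.1% in the first part of *HMG1* and 74.2% in the second part, divided at its midpoint. The longest run of identical bases was 23, shorter than a single read of the authors' paired-end sequencing, and the assignment of reads itself was not tested. This run is shown in capitals with 25 bases on either side, from chrXIII:116658-116730 (minus strand) for *HMG1* and chrXII:1034783-1034855 (plus strand) for *HMG2*.
*HMG1*: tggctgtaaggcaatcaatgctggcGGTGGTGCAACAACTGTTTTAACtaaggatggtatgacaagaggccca
*HMG2*: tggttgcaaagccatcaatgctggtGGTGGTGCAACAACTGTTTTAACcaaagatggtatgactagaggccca

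**Figure D2:**
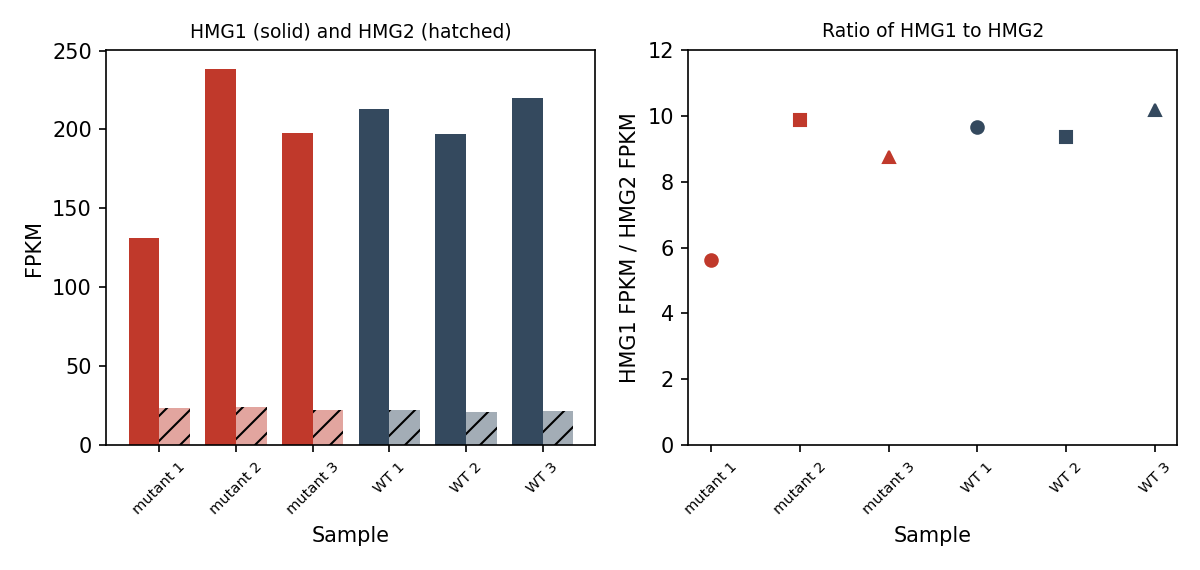
Left, FPKM of *HMG1* (solid bars) and *HMG2* (hatched bars) in each of the mutant (*kcs1*-S537A,S646A) and WT libraries, and right, the ratio of *HMG1* to *HMG2*. The ratio is 5.63 in mutant replicate 1 and from 8.76 to 10.2 in the other libraries, while *HMG2* stays between 21.1 and 24.1 FPKM.

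The kinases that phosphorylate mevalonate in turn did not pass the test. *ERG12*, mevalonate kinase, was measured at 165, 171 and 175 CPM in the mutant and at 187, 189 and 200.2 CPM in WT. All mutant values were below all WT values, and the log2 fold change came to -0.17 (SE 0.08, 95% interval -0.35 to 0.003, adjusted *p* = 0.26, edgeR). It was -0.15 when mutant replicate 1 was left out. *ERG8*, phosphomevalonate kinase, was measured at 142, 175 and 169 CPM in the mutant and at 169, 178 and 188 CPM in WT. The strains overlapped, and the log2 fold change was -0.14 (SE 0.10, adjusted *p* = 0.49, edgeR).

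YNR043W was the member called lower. Its product, mevalonate diphosphate decarboxylase, makes isopentenyl diphosphate. It was measured at 300.1, 435 and 424 CPM in the mutant and at 649, 610.0 and 641 CPM in WT, so that the strains did not overlap and the mutant mean was lower by 39.0%. The log2 fold change was -0.71 (SE 0.15, 95% interval -1.05 to -0.37, adjusted *p* = 0.032, edgeR), and without mutant replicate 1 it was -0.56 (adjusted *p* = 0.0092). The call was lost when WT replicate 1, 2 or 3 was left out (adjusted *p* = 0.14, 0.12 and 0.13) and without mutant replicate 3 (adjusted *p* = 0.054, edgeR). The log2 fold change in these fits was -0.70, -0.74, -0.70 and -0.79. Calls over all genes also fell in the fits without a WT library, from 344 to 96, 84 and 122.

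YNR043W lies on chromosome XIV (701895 to 703085, plus strand), where 57.2% of the 407 genes tested were called lower, against 0.899% of the 5676 genes tested elsewhere. Its difference from the WT mean minus the median of the other chromosome XIV genes was -0.56 in mutant replicate 1, 0.012 in mutant replicate 2 and -0.043 in mutant replicate 3, and 0.030, -0.044 and 0.016 in the WT libraries. In mutant replicates 2 and 3 the gene was therefore as low as its chromosome, and in mutant replicate 1 lower. With an offset for chromosomes XIV and VI in each library, the log2 fold change was -0.17 (SE 0.15, adjusted *p* = 0.60, edgeR). Of the 20 nearest tested genes, 10 on either side, 19 had a negative log2 fold change and 8 were called lower, with a median of -0.46 and a range of -0.90 to 0.049. YNR043W had the 79th lowest log2 fold change of the chromosome's tested genes. The cause of the chromosome's low transcript levels was not tested.

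**Figure D3:**
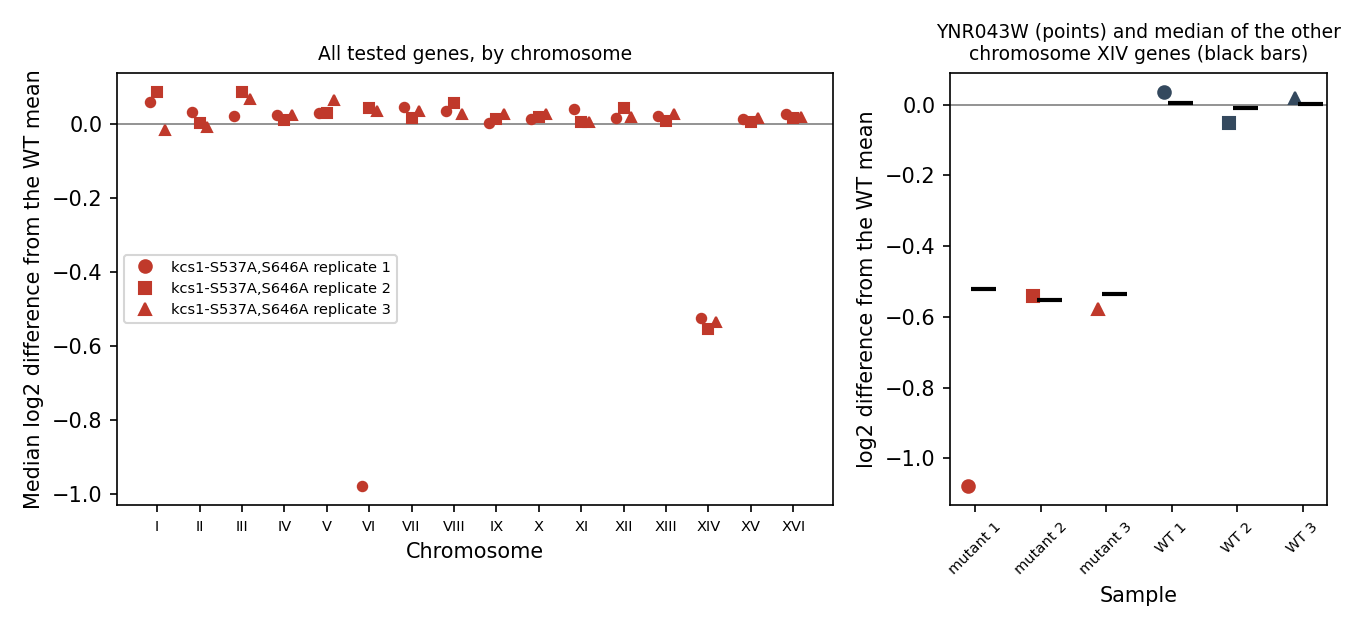
Left, the median log2 difference from the WT mean over the tested genes of each chromosome in the 3 mutant libraries, and right, YNR043W (points) beside the median of the other chromosome XIV genes (black bars) in the mutant and WT libraries. Chromosome XIV lies between -0.55 and -0.52 in all 3 mutant libraries, and YNR043W follows it in mutant replicates 2 and 3 and lies at -1.08 in mutant replicate 1.

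The genes of the isoprenoid diphosphates and of squalene synthase did not pass the test. *IDI1*, isopentenyl diphosphate isomerase, was measured at 444, 470.2 and 486 CPM in the mutant and at 471, 445 and 468 CPM in WT. The strains overlapped, and the log2 fold change was 0.02 (SE 0.09, 95% interval -0.19 to 0.22, adjusted *p* = 0.94, edgeR). Its sign turned with library totals in place of TMM, at -0.046.

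*ERG20*, farnesyl diphosphate synthase, was measured at 221, 368 and 326 CPM in the mutant and at 352, 325 and 354 CPM in WT. Mutant replicate 1 was below the WT range and mutant replicate 2 above it. The log2 fold change of *ERG20* was -0.17 (SE 0.17, adjusted *p* = 0.63, edgeR), and its direction turned without mutant replicate 1, at 0.010. *ERG9*, squalene synthase, was measured at 243, 338 and 384 CPM in the mutant and at 371, 381 and 419 CPM in WT. Mutant replicate 3 lay within the WT range, and the log2 fold change was -0.28 (SE 0.16, 95% interval -0.65 to 0.10, adjusted *p* = 0.39, edgeR).

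**Figure D4:**
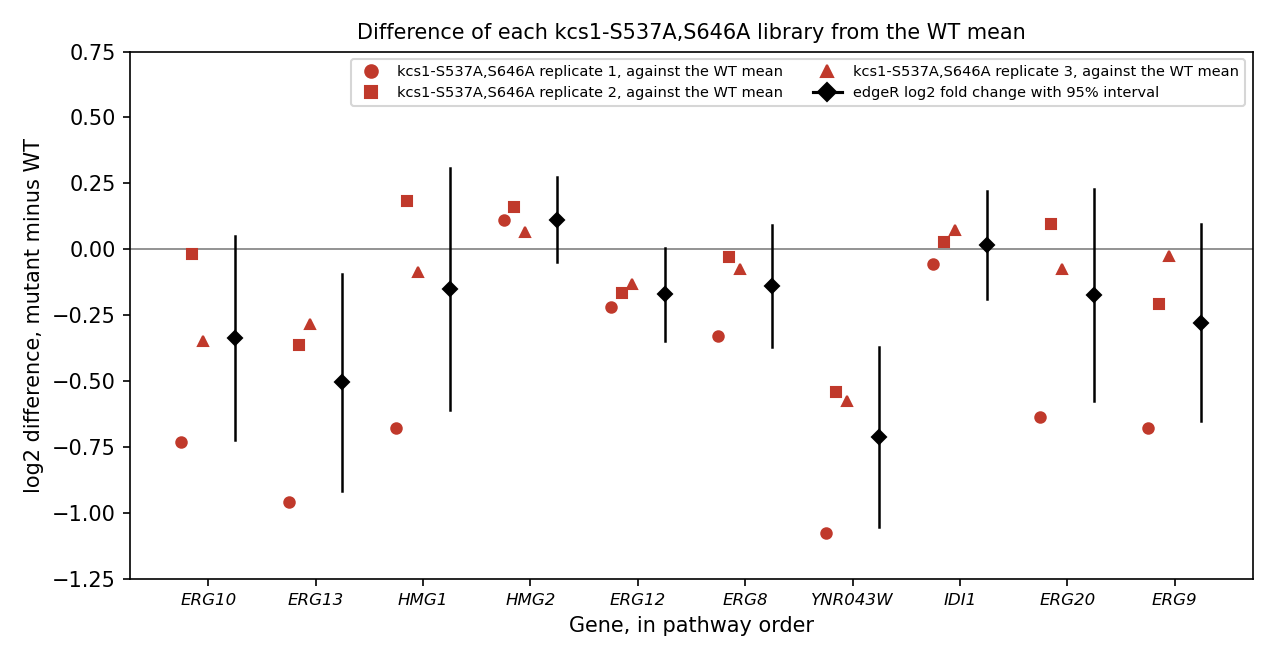
log2 difference of each mutant library from the WT mean (red symbols) and edgeR log2 fold change of the mutant relative to WT with its 95% interval (black) for the 10 genes in pathway order. The interval lies below 0 for *ERG13* and YNR043W, and mutant replicate 1 is the lowest mutant library for all genes except *HMG2*.

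The transcripts of *ERG10*, *ERG13*, *HMG1*, YNR043W, *ERG20* and *ERG9* varied more between mutant colonies than between WT colonies. Their coefficients of variation were 19.4% to 28.6% in the mutant and 2.41% to 7.73% in WT. For *HMG2*, *ERG12* and *IDI1* they were 3.01% to 4.55% in the mutant and 2.37% to 3.75% in WT, and for *ERG8* they were 10.8% in the mutant and 5.31% in WT. Over the 6 samples, *HMG1* and *ERG20* followed each other most closely (Pearson *r* = 0.995), and *HMG2* ran against *ERG12* (*r* = -0.84). The correlation of a gene with the mean of the other 9 was from 0.79 to 0.96 for 8 of the members, 0.46 for *IDI1* and -0.54 for *HMG2*. These values describe 6 libraries that share the shift between the strains and the low values of mutant replicate 1.

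Per length, the order of the 10 transcripts was not the same in both strains. In the mutant, *IDI1* came first at 538 ± 23.9 FPKM, followed by *ERG13* at 444 ± 104, *ERG10* at 327 ± 79.7, YNR043W at 324 ± 62.7, *ERG20* at 288 ± 71.1, *ERG9* at 241 ± 53.2, *HMG1* at 189 ± 54.0, *ERG12* at 128 ± 3.71, *ERG8* at 119 ± 12.8 and *HMG2* at 23.3 ± 0.78 FPKM (SD, n = 3). In WT, *ERG13* came first at 630.3 ± 49.9 FPKM, followed by *IDI1* at 532 ± 15.8, YNR043W at 531 ± 16.8, *ERG10* at 413 ± 8.88, *ERG20* at 324 ± 15, *ERG9* at 292 ± 19.7, *HMG1* at 210.1 ± 11.7, *ERG12* at 144 ± 5.75, *ERG8* at 131 ± 7.33 and *HMG2* at 21.6 ± 0.47 FPKM. Neighbours whose WT libraries overlapped were *IDI1* and YNR043W, and *ERG20* and *ERG9*. In the mutant, neighbours from *IDI1* to *HMG1* overlapped, as did *ERG12* and *ERG8*.

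Outside the 10 genes, the profile over the 6 samples most like their mean was that of *RET2*, a coatomer subunit gene on chromosome VI (*r* = 0.994), followed by *CHK1* (0.993), a DNA damage checkpoint kinase, *RIP1* (0.992), the Rieske protein of the respiratory chain, *ATP3* (0.990), an ATP synthase subunit, and *ERG7* (0.989), lanosterol synthase. The median *r* over the 6073 other genes tested was 0.0084, and 3.72% exceeded 0.9. None of these genes passed the test between the strains (adjusted *p* of 0.31 to 0.56 for *RET2*, *CHK1*, *RIP1*, *ATP3* and *ERG7*, edgeR). *RET2* was measured at 49.3, 109 and 104 CPM in the mutant and at 126, 122 and 132 CPM in WT, and its lowest library was also mutant replicate 1.

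The later genes of the pathway, from squalene to ergosterol, had a more negative median than the earlier ones (-0.17), although single genes of the lists overlapped. Of 16 genes tested, 3 were called lower and 0 higher, 14 had a negative log2 fold change, and the median was -0.36. Over all genes tested, for this list and those that follow, 4.67% were called lower, 0.986% were called higher and the median was 0.015. Per mutant library the median difference from the WT mean was -0.68, -0.27 and -0.22, so that mutant replicates 2 and 3 were also low in these genes. *ERG24*, sterol C-14 reductase, was measured at 132, 192 and 171 CPM in the mutant and at 312, 311 and 314 CPM in WT (log2 fold change -0.92, adjusted *p* = 0.0090, edgeR). *CYB5*, cytochrome b5, fell by 0.97 (adjusted *p* = 0.011, edgeR), and it and *ERG24* are on chromosome XIV. *ERG5*, sterol C-22 desaturase, on chromosome XIII, was measured at 652, 906 and 980.0 CPM in the mutant and at 1326, 1306 and 1444 CPM in WT (log2 fold change -0.68, adjusted *p* = 0.0495, edgeR). The difference between the earlier and later genes was not tested.

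Upstream of *ERG10*, the genes that supply cytosolic acetyl-CoA had 1 of 10 called lower, 0 higher and a median of -0.22. It was *ALD6*, cytosolic acetaldehyde dehydrogenase, on chromosome XVI, which was measured at 114, 128 and 75.8 CPM in the mutant and at 229, 224 and 202 CPM in WT (log2 fold change -1.05, SE 0.18, adjusted *p* = 0.014, edgeR). Among the genes that use farnesyl or isopentenyl diphosphate, 1 of 16 was called lower, 0 higher, and the median was -0.056. That gene was *COQ2* of ubiquinone synthesis, on chromosome XIV (log2 fold change -0.57, adjusted *p* = 0.0497, edgeR).

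Of the 12 regulators of sterol genes, 0 were called lower and 1 higher, with a median of 0.070. *ECM22*, an activator of sterol genes, was measured at 38.4, 32.5 and 33.3 CPM in the mutant and at 24.1, 24.7 and 24.2 CPM in WT (log2 fold change 0.51, SE 0.09, adjusted *p* = 0.018, edgeR). All mutant values were above all WT values. Of the 12 genes for turnover and retention of HMG-CoA reductase, 1 was called lower and 0 higher, with a median of -0.088, and that gene was *NSG2*, whose product binds Hmg2, on chromosome XIV (log2 fold change -0.68, adjusted *p* = 0.0092, edgeR).

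Sterol ester and uptake genes had 1 of 9 called lower, *ARE2*, a sterol acyltransferase gene on chromosome XIV (log2 fold change -0.47, adjusted *p* = 0.045, edgeR), 0 higher and a median of -0.081. The aerobic and hypoxic isogenes had 1 of 12 tested called lower, *COX5A*, the aerobic form of a cytochrome oxidase subunit, on chromosome XIV (log2 fold change -0.68, adjusted *p* = 0.018, edgeR), 0 higher and a median of -0.035. *HYP2* of this list was listed at 0 in all 6 samples and was not tested. The reason for the 0 was not examined, and it is not read as absence of the transcript. Over these 7 lists, which hold 85 tested genes, 9 were called, against 5.66% of all genes tested (344 of 6083), and 25 had an unadjusted *p* under 0.05, against 20.1% of all. With the offset for chromosomes XIV and VI, edgeR called 0 of the 85, and 20 had an unadjusted *p* under 0.05, against 16.5% of all genes tested. The called genes outside chromosome XIV, whose values the offset does not act on, were no longer called, with adjusted *p* = 0.063 for *ALD6*, 0.077 for *ECM22* and 0.11 for *ERG5* (edgeR). Of those on chromosome XIV, *CYB5* was at -0.43, *ERG24* at -0.38, *COX5A* at -0.15, *NSG2* at -0.14, *COQ2* at -0.029 and *ARE2* at 0.073 on the log2 scale.

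**Figure D5:**
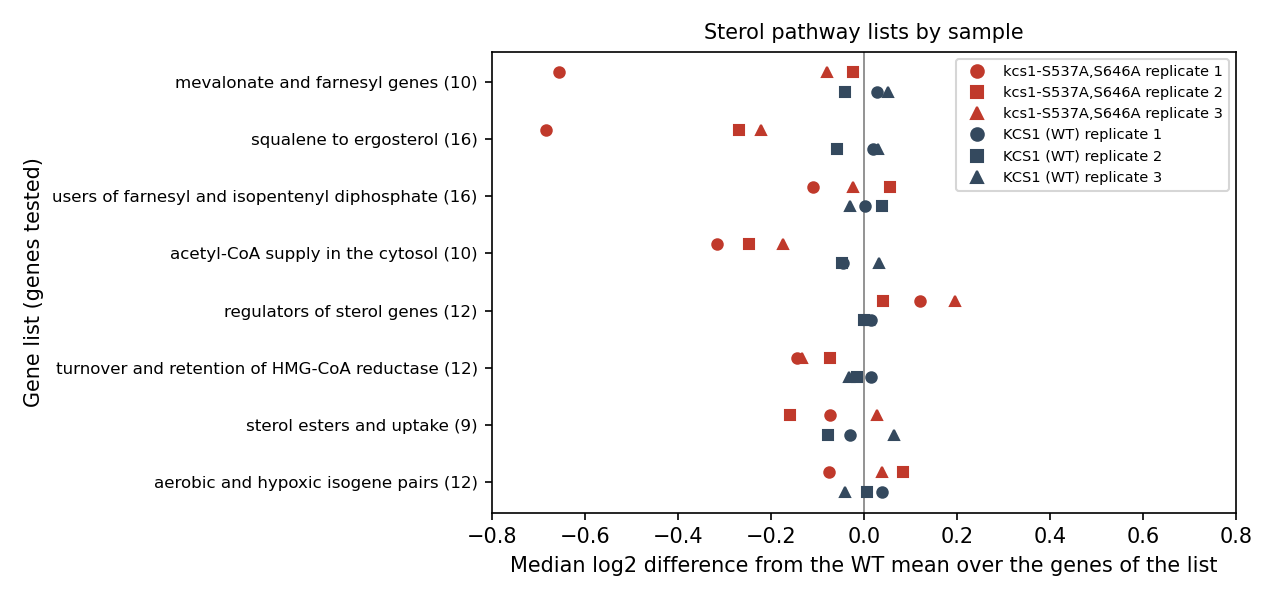
Median log2 difference from the WT mean over the tested genes of each list in the mutant libraries (red) and the WT libraries (grey), with the number of genes tested after each name. Mutant replicate 1 lies at -0.66 for the mevalonate and farnesyl genes and at -0.68 for the squalene to ergosterol genes, and mutant replicates 2 and 3 lie near 0 in the first of these lists and at -0.27 and -0.22 in the second.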

How the data were processed

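RNA was measured in 3 colonies with *kcs1*-S537A,S646A and 3 with *KCS1*, grouped by the sample labels. The authors' sequencing provider used HISAT2 2.0.5 for mapping and featureCounts 1.5.0-p3 for counting, and the authors deposited raw counts. The FPKM values deposited by the authors are these counts divided by gene length and a depth per sample, as checked on the values, and gene lengths and positions are those the authors deposited in the same table. Per the processing notes, StringTie 1.3.3b and DESeq2 1.20.0 were also used. The genome build and strand setting are not given in the sources used here. A table of the authors' mean FPKM per strain was not used.

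The strains were compared with edgeR 4.0.16 under R 4.3.3 (TMM, filterByExpr with a minimum of 10 counts, glmQLFit and glmQLFTest, 2-sided, Benjamini-Hochberg adjustment over all genes tested). Standard errors (SE) were derived from each log2 fold change and its F statistic, and intervals are 95%. Total counts of 17950923 to 22701020 leave counting error small for most members, so that the spread between 3 colonies limits the precision. *HMG2* had the fewest counts of the members, 1251 to 1704 per library. Its coefficients of variation (3.26% in the mutant and 2.37% in WT) are of the size of counting error, which also limits its precision. The scripts were tested on simulated data. Alternatives were DESeq2 1.42.0, limma 3.58.1 (voom, or trend on log2(FPKM + 1)), other scalings and filters, a replicate block, each sample left out, unadjusted *p*-values, chromosomes XIV and VI left out, and an offset for them. The members and lists were chosen with earlier results of these data known. The text names all 10 members, *KCS1* and *URA3*, each list gene with an adjusted *p* under 0.05, and the 5 genes most correlated with the members' mean.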

Additional observations from a re-analysis of the deposited data

How the results depend on the processing

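The count of members called was 1 and became 0 with a replicate block, without chromosomes XIV and VI (which leaves YNR043W out) and with an offset for them, and 2 at an unadjusted *p*. With single libraries left out it ranged from 0 (without WT replicate 1, 2 or 3, or mutant replicate 3) to 2 (without mutant replicate 2, which added *ERG10*). YNR043W had an adjusted *p* of 0.057 with the replicate block. Deviations from the strain mean correlated at -0.13, 0.020 and 0.31 between same-numbered mutant and WT libraries, and at -0.24 to 0.24 between differently numbered ones. As deviations within 3 libraries are not independent, these values cannot decide whether the numbers mark pairs. The main fit had no block because the methods name no pairing. The block gave 282 calls over all genes, where the main count was 344. That count was 579 with DESeq2, 16 without chromosomes XIV and VI, 19 with the offset, 1224 at an unadjusted *p*, and 84 (without WT replicate 2) to 481 (without mutant replicate 2) with single libraries left out. It was 96 without WT replicate 1 and 122 without WT replicate 3. The calls over the 7 other lists were 9, 16 with DESeq2 and 0 with the offset. The members' median log2 fold change of -0.17 ranged from -0.33 to -0.086, and the *HMG1* to *HMG2* difference from -0.47 to -0.064, with single libraries left out. The sign turned for *IDI1* with library totals (-0.046), without WT replicate 2 (-0.0092), without mutant replicate 3 (-0.014) and without chromosomes XIV and VI (-0.0041), and for *HMG1* (0.050) and *ERG20* (0.010) without mutant replicate 1. With single libraries left out, *HMG1* ranged from -0.36 to 0.050, *IDI1* from -0.014 to 0.048 and *ERG20* from -0.33 to 0.010. The adjusted *p* of *ERG13* was 0.056 to 0.42 over the 16 alternatives. Some of these fits held fewer genes or samples, and the cause of the changes between fits was not tested. With 3 colonies of 1 strain per allele, the spread between libraries limits every comparison, and for *HMG2* that spread is of the size of counting error.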
